A study of Mus musculus with 32 samples.

Results

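The 9 genes described here encode components and inhibitors of the complement system: C1ra, C1s1, C2, C4b, C3, Cfb, Serping1, Cd55 and Cd59a. They were chosen by symbol, matched to the Ensembl gene identifiers of the deposited tables, and followed in vehicle and IFN-β libraries. All 9 are among the 23035 genes of the footprint tables. The study treated neural stem cells (NSCs), the stem cells of the ventricular-subventricular zone (vSVZ) of the adult mouse brain, with the type I interferon IFN-β for 2 h or 14 h and sequenced ribosome footprints, the mRNA fragments that translating ribosomes protect, beside total RNA of the same lysates. The question addressed here is how the ribosome-bound mRNA of complement genes differed between IFN-β and vehicle at each time.

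Every library came from NSCs of wild-type C57BL/6 mice of 8 to 12 weeks, grown in culture before treatment, so no group is freshly isolated tissue. Control cells received the carrier solution (vehicle) for the same time, and all cells, controls included, were given cycloheximide, which stalls elongating ribosomes, before lysis. There were 4 groups of footprint libraries (vehicle 2 h, IFN-β 2 h, vehicle 14 h and IFN-β 14 h) and the same 4 groups of total RNA libraries, with 4 libraries each and 32 in all. The 2 h libraries carry the numbers 2, 3, 5 and 6 and the 14 h libraries the numbers 1 to 4. Libraries of a time that share a number deviated together from their group means in footprints and are called a culture here. The 2 times were deposited in separate tables, and the sources used here do not say whether libraries 2 and 3, numbers that occur at both times, share a culture. In a comparison of levels between the times, time cannot be told apart from table or culture.

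Complement is a cascade of plasma proteases. In the classical pathway, bound C1q activates C1r, C1r activates C1s, and C1s cleaves C4 and C2, whose fragments form the enzyme that cleaves C3; factor B takes the part of C2 in the alternative pathway. The C1 inhibitor, encoded by Serping1, blocks C1r and C1s, CD55 disperses the C3-cleaving enzymes on cell surfaces, and CD59 stops assembly of the membrane attack complex. Type I interferons induce many genes through interferon-stimulated response elements in their promoters, and interferon signalling can also act at gamma-activated sites. The liver is the main source of the circulating proteins, while glial cells can make several of them in the brain.

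The sum of counts per library ran from 2956297 to 10505108 in footprints and from 1370008 to 7877753 in total RNA. Levels are counts per 1000000 counts of the library (CPM) after scaling by trimmed mean of M-values (TMM). Of the neural stem and radial glial markers, Fabp7 was at 2345 to 5723 CPM, Slc1a3 at 591 to 1438 CPM and Nr2e1 at 7.72 to 29.9 CPM over all footprint libraries, while Gfap and Hes5 had under 10 footprints in some. At 14 h Fabp7, Slc1a3 and Nr2e1 fell by 0.40, 0.36 and 0.47 on the log2 scale (adjusted p = 7.55e-05, 4.48e-05 and 0.0118). The microglial genes Aif1, Cx3cr1, Trem2 and Tyrobp were at 0 in all footprint libraries, and Tmem119 and Ptprc held at most 2 counts in any. Footprints of P2ry12, another microglial marker, ran from 5.57 to 8.28 CPM in vehicle and from 20.4 to 26.0 CPM in IFN-β at 14 h (log2 fold change 1.62, SE 0.14, adjusted p = 1.36e-07). The 8 fibroblast and pericyte markers summed to at most 3.47 CPM in any library, those of endothelial cells to 11.3 to 41.8 CPM and those of neurons and neuroblasts to 48.2 to 116 CPM. At 14 h the endothelial gene Tek rose by 0.84 (SE 0.17, adjusted p = 0.00102) and the neuronal gene Tubb3 by 0.23 (SE 0.08, adjusted p = 0.0266) on the log2 scale. At 2 h the endothelial gene Kdr was at 3.21 to 9.23 CPM in vehicle and 6.74 to 23.9 CPM in IFN-β (adjusted p = 0.0744). The part of other cell types in the results was not tested. In cultured bulk samples, fewer cells of a type and less RNA per cell cannot be told apart.

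Several of these genes have a near-identical neighbour, which bears on what their counts mean. C1ra (chr6:124512405-124523443, plus strand, mm10) and its copy C1rb (chr6:124570294-124581171, plus strand) lie on the same chromosome, and 71.5% of the 30-base windows of the C1ra coding sequence occur unchanged in C1rb. This rises to 92.2% when up to 2 mismatches are allowed. The same shares were 43.6% and 79.4% for C1s1 against C1s2, 50.0% and 83.2% for C4b against C4a, 39.6% and 64.2% for Cd55 against Cd55b, and 5.29% and 32.4% for Cd59a against Cd59b. In the last 600 coding bases of C1ra and C1rb 35 differ, and the stretch below is shown because 16 of them, in capitals, fall within 60 bases. Most of the capitals are in the left part, where a footprint meets several differing letters. A footprint over the right part meets few. The stretch lies at chr6:124522378-124522437 in C1ra and chr6:124580424-124580483 in C1rb (mm10, plus strand).
C1ra: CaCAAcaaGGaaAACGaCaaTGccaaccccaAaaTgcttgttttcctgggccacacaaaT
C1rb: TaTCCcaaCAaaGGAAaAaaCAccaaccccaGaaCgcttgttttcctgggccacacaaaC
Between the last pair of capitals the letters of both genes are the same. C4a is annotated as a processed transcript without a coding sequence and has no row in the footprint tables, so a C4b count there can hold reads of C4a.

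The promoter table from RefSeq (GRCm38.p6, 250 bases before to 50 after the start) holds C1s1, C1ra, C3, Cd55 and Cd59a among the 9. It has no entry for C2, C4b, Cfb and Serping1. The windows were searched on both strands for the gamma-activated site TTCNNNGAA, which reads the same on either strand, and for the core of the interferon-stimulated response element, TTTC and TTTC with any 2 bases between them, which on the other strand reads GAAA and GAAA with 2 bases between. The 2 motifs differ in letters but their matches can overlap. C1ra and its copy C1rb each held 1 gamma-activated site match with the same letters, and Cd59a held 1 response element match. These are shown, with the match in capitals, because C1ra and C1rb both rose in the footprints described below, while Cd59a had too few footprints to test. The first base of the match is at position 32 from the RefSeq start in C1ra, at -119 in C1rb and at -187 in Cd59a, and the stretches lie at chr6:124512643-124512670, chr6:124570301-124570329 and chr2:104095604-104095633, all on the plus strand.
C1ra: aaatgcttcaTTCCCTGAAacattcctc
C1rb: aaatgcttcaTTCCCTGAAacatttctcc
Cd59a: tgtttttaaaGAAAGGGAAAatcaagagcc
Of all 32851 windows in the table, 8.30% held the gamma-activated site and 3.44% the response element core. C1s1, C3 and Cd55 held neither, which says only that these letters are not in these windows.

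After 14 h of IFN-β, footprints on C4b, C1ra and Serping1 were higher than in vehicle by about 6 to 7 on the log2 scale, and these were the 3 members with enough counts to test. After 2 h, Serping1 footprints had already risen while C4b footprints had not changed beyond the spread between libraries. Footprints on C3, Cd55 and Cd59a stayed in single figures in every library. In the main test a gene had to hold 10 or more counts in 4 or more of the libraries compared, and a change was called at an adjusted p under 0.05. At 2 h 2 members passed this filter, with 1 called higher and 0 lower, where 5.24% of the 12104 genes tested were called higher and 1.98% lower. At 14 h 3 passed, with 3 called higher and 0 lower, where 25.9% of 12113 were called higher and 26.2% lower. These 3 passed through the IFN-β libraries, since no vehicle library held more than 16 counts of any of them, so their count is given as a description. The same holds for Serping1, the 1 called at 2 h, which had 5, 14, 2 and 10 counts in vehicle. It too passed the filter only through the IFN-β libraries, so the 2 h count is also a description.

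Counting every member, the groups can also be set side by side without a filter. At 2 h all 4 IFN-β libraries lay above all 4 vehicle libraries in CPM for 2 of the 9, Serping1 and C1ra, against 6.3% of the 16406 genes with a count. At 14 h they did so for 5 of the 9, C1ra, C1s1, C2, C4b and Serping1, against 17.6% of 17376 genes. The plot of footprint levels by library shows both times.

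**Figure D1:**
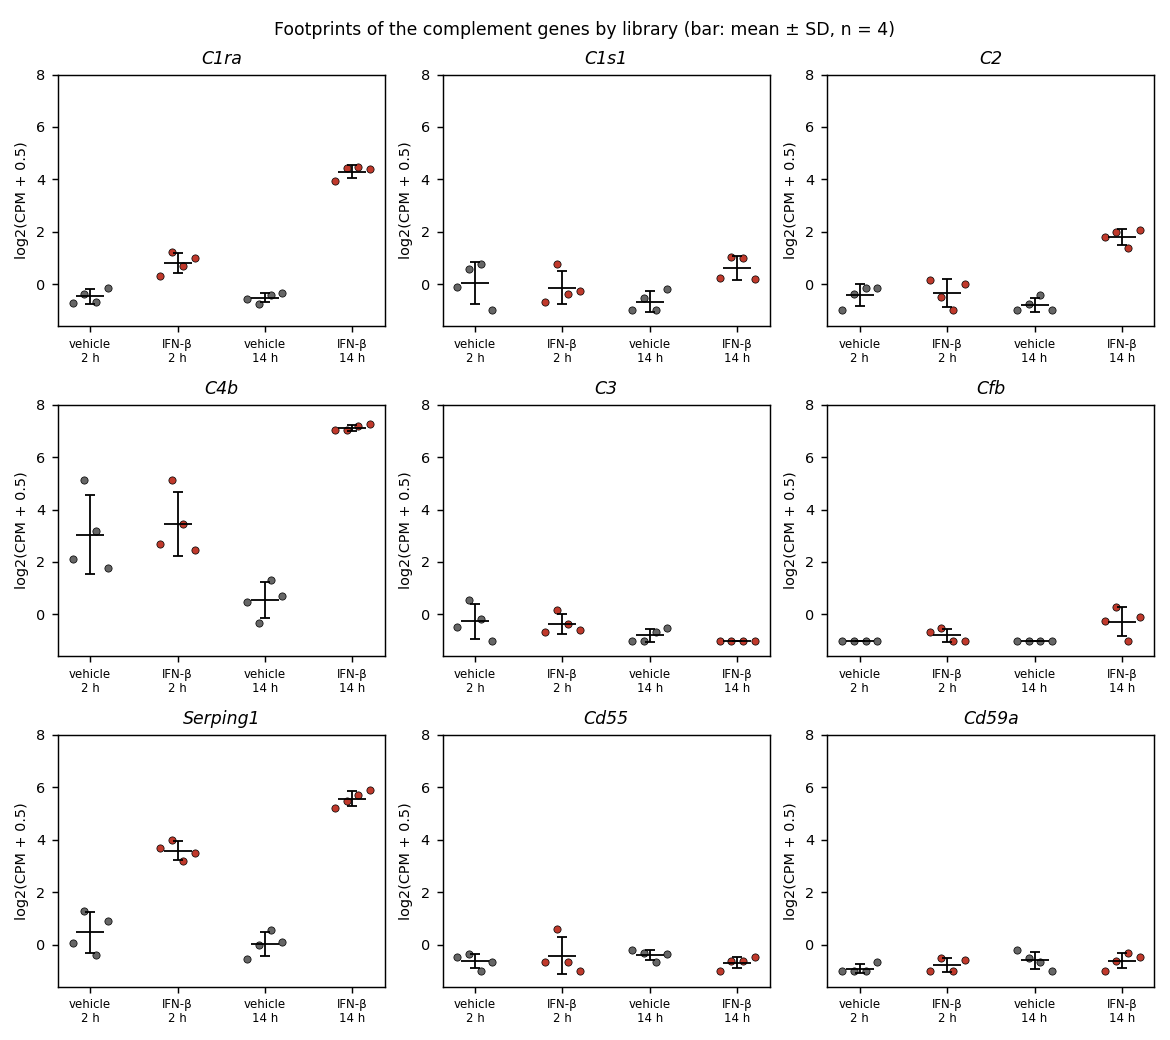
Footprint level of each of the 9 complement genes as log2(CPM + 0.5), by treatment and time; each point is a library and each bar the mean with its SD (n = 4). At 14 h the IFN-β points of C4b, Serping1, C1ra, C2 and C1s1 lie above all vehicle points, while those of Cd55 and Cd59a do not.

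C1ra encodes C1r, the protease that starts the classical cascade. At 14 h the vehicle libraries held 1, 1, 2 and 3 C1ra footprints and the IFN-β libraries 44, 146, 145 and 190 (libraries 1 to 4). That is 0.203 ± 0.0815 CPM in vehicle and 19.4 ± 3.11 CPM in IFN-β (SD, n = 4), and the groups were far apart. The log2 fold change was 6.48 (SE 0.25, adjusted p = 1.50e-11, edgeR). At 2 h the counts were 1, 2, 1 and 3 in vehicle and 6, 9, 8 and 9 in IFN-β (libraries 2, 3, 5 and 6). No 2 h library reached 10 counts, so C1ra was not tested there, yet each IFN-β library exceeded each vehicle library. Summed over the 4 libraries, 32 counts against 7 gave a ratio of 5.51, with a 95% counting interval of 2.39 to 14.8. Without the filter on low counts, C1ra at 2 h was called as well (log2 fold change 2.40, SE 0.52, adjusted p = 0.0212), and with Serping1 it was 1 of 2 members called higher there, against 3.93% of all genes.

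The copy C1rb, an annotated paralogue of C1ra, followed it. At 14 h C1rb had 1, 0, 0 and 1 counts in vehicle and 27, 50, 64 and 90 in IFN-β. The summed ratio, 231 counts against 2, was 152 with an interval of 41.5 to 1261, which the low vehicle count leaves wide. With the counts of copies added together, the C1ra change at 14 h was 6.67 (SE 0.22, adjusted p = 1.73e-12). The deposited counts do not say how much of either row belongs to the other gene.

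C1s1 encodes C1s, the protease that cleaves C4 and C2. Its footprints were few: 4, 7, 9 and 0 in vehicle and 1, 6, 2 and 2 in IFN-β at 2 h, then 0, 2, 0 and 4 in vehicle and 2, 11, 10 and 6 in IFN-β at 14 h. At 2 h the groups overlapped, with 0.649 ± 0.54 CPM in vehicle and 0.491 ± 0.497 CPM in IFN-β (SD, n = 4). At 14 h they were 0.145 ± 0.183 and 1.09 ± 0.504 CPM and did not overlap, although library 1 of IFN-β, with 2 counts, is the shallowest of the 16. C1s1 missed the filter at both times. Without the filter it was called at 14 h (log2 fold change 2.55, SE 0.62, adjusted p = 0.0011). Its copy C1s2 had 7 counts in vehicle and 18 in IFN-β over the 14 h libraries and was not called there (1.64, SE 0.67, adjusted p = 0.0528).

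C4b encodes complement C4, whose fragment C4b anchors the C3-cleaving enzyme, and it gave the highest CPM of the 9 at 14 h. The vehicle libraries held 5, 3, 16 and 12 footprints and the IFN-β libraries 393, 905, 983 and 1424. This was 1.08 ± 0.697 CPM in vehicle and 139.9 ± 11.1 CPM in IFN-β (SD, n = 4), a log2 fold change of 7.03 (SE 0.19, adjusted p = 1.77e-11). The 4 IFN-β libraries lay within 129 to 153 CPM, a narrow range beside the change.

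At 2 h C4b differed far more between cultures than between treatments. Vehicle libraries 2, 3, 5 and 6 had 36, 247, 65 and 21 counts and the IFN-β libraries 47, 171, 75 and 30. Culture 3 stood highest in both groups, at 34.5 and 34.9 CPM, where the other 6 libraries ran from 2.89 to 10.5 CPM. The log2 fold change was 0.15 (SE 0.86, adjusted p = 0.97). Same-numbered libraries gave IFN-β over vehicle ratios of 1.55, 1.01, 1.22 and 1.72 in cultures 2, 3, 5 and 6, all small beside those at 14 h, which ran from 73.5 to 433. With the culture number as a block the change at 2 h was 0.26 (SE 0.14, adjusted p = 0.166). Leaving out single libraries, which keeps the same-numbered library of the other group in the fit, moved the unblocked estimate between -0.79 and 1.42. Without culture 3 in both groups, an alternative added after seeing the data, it was 0.51 (adjusted p = 0.575).

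Culture 3 stood apart in other genes too. Footprints of Gfap, the intermediate filament of astrocytes and radial glia-like stem cells, were at 114 CPM in its vehicle library, against 0.689 to 4.9 CPM in the other 2 h vehicle libraries, and at 469 CPM in its IFN-β library, against 46.2 to 75.3 CPM. The radial glial gene Fabp7 was lower in culture 3, at 3390 and 3095 CPM, than in the other 2 h libraries, at 5165 to 5723 CPM. The part of this makeup in the C4b level was not tested. The plot of 2 h cultures joins the libraries of each number.

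**Figure D2:**
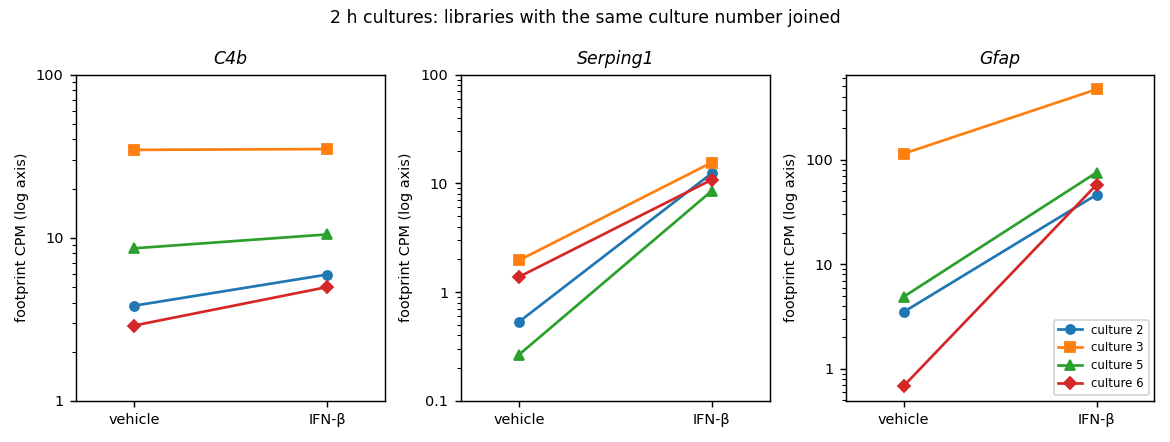
Footprint CPM (log axis) of C4b, Serping1 and Gfap in vehicle and IFN-β libraries at 2 h, 1 line for each culture number. Culture 3 is highest in C4b and Gfap in both treatments, and the Serping1 lines rise in all 4 cultures while the C4b lines are close to level.

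Serping1 encodes the C1 inhibitor, which blocks C1r and C1s. At 2 h the vehicle libraries had 5, 14, 2 and 10 footprints and the IFN-β libraries 98, 76, 61 and 65. The levels, 1.03 ± 0.778 CPM and 11.8 ± 2.95 CPM (SD, n = 4), did not overlap, and the ratio within a culture ran from 7.83 to 32.1. The log2 fold change was 3.53 (SE 0.44, adjusted p = 0.000998). At 14 h the counts were 1, 5, 8 and 6 in vehicle and 108, 310, 353 and 548 in IFN-β. Levels were 0.559 ± 0.334 and 47.9 ± 9.76 CPM, and the log2 fold change was 6.35 (SE 0.25, adjusted p = 2.90e-10). Unlike C1ra and C4b, Serping1 has no listed copy, and none of its 1512 coding bases is annotated to another gene.

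The response grew between the 2 times for all 3 members tested, where 15.4% of 12508 genes had a difference called higher and 15.5% lower. The change at 14 h exceeded that at 2 h by 6.90 for C4b (SE 1.11, adjusted p = 0.000253), by 4.08 for C1ra (SE 0.73, adjusted p = 0.000535) and by 2.80 for Serping1 (SE 0.62, adjusted p = 0.00307), on the log2 scale. No member had a difference called lower. Serping1 had risen by 2 h, where C4b did not pass the test and C1ra was not tested. These differences compare responses, each against the vehicle libraries of its own time, and C1ra and Serping1 passed the filter through the IFN-β libraries. For C4b the vehicle levels differ as well, with means of 12.5 CPM at 2 h, where culture 3 was at 34.5 CPM, and 1.08 CPM at 14 h, against 14.1 and 139.9 CPM in IFN-β. With the culture number as a block, the calls over all genes at 2 h grew to 1936 higher and 1650 lower, and those of the difference to 3490 and 3441, while the same 3 members were called.

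**Figure D3:**
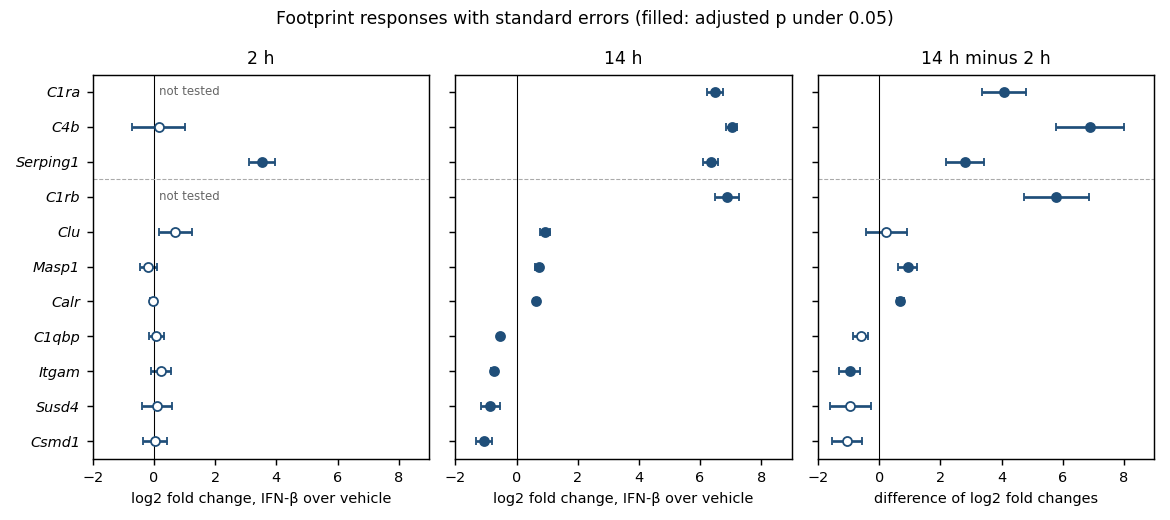
Log2 fold change of footprints at 2 h and 14 h and the difference of the responses, with standard errors, for the 3 complement genes tested and, under the dashed line, the other complement genes called at 14 h. Filled points have an adjusted p under 0.05; C4b, C1ra and Serping1 lie between 6.35 and 7.03 at 14 h, and C1rb is the only other gene near them.

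C2 encodes the protease that joins C4b in the C3-cleaving enzyme, and Cfb encodes factor B, its counterpart in the alternative pathway. Both counts come from a small part of the gene. The annotated read-through gene Gm20547, on the same strand, covers 1609 of the 2427 coding bases of C2 and 2228 of the 2363 coding bases of Cfb. The counting used by the authors drops a read that overlaps 2 genes, which leaves 818 bases (33.7%) of C2 and 135 bases (5.71%) of Cfb. Gm20547 itself was at 0 in every library. The plot of coding bases sets these beside the other members.

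**Figure D4:**
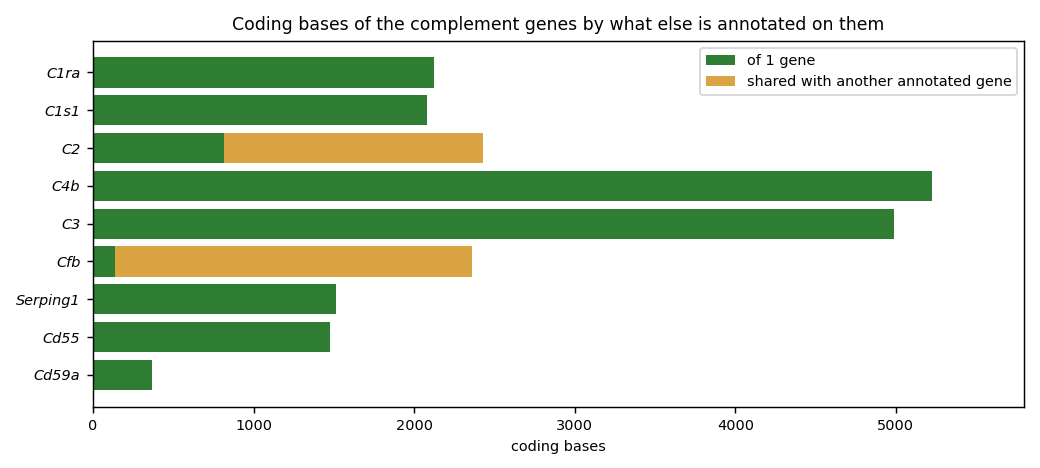
Coding bases of each of the 9 genes that belong to it alone (green) or are also annotated to another gene (yellow). C2 keeps 818 of 2427 and Cfb 135 of 2363, while no other member shares any.

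Within these limits C2 footprints were higher in IFN-β at 14 h. The vehicle libraries had 0, 1, 2 and 0 counts and the IFN-β libraries 9, 24, 14 and 34, so the groups did not overlap. Only 3 libraries reached 10 counts, which kept C2 out of the main test. Summed, 81 counts against 3 gave a ratio of 35.5 with a counting interval of 11.7 to 176. Without the filter C2 was called at 14 h (log2 fold change 4.88, SE 0.52, adjusted p = 1.22e-09), and 6 members in all were then called higher, against 17.9% of all genes. At 2 h C2 had 0, 2, 3 and 3 counts in vehicle and 5, 1, 0 and 3 in IFN-β, and the groups overlapped.

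Cfb had 0 footprints in all 8 vehicle libraries, which allows up to 3 counts in a group. IFN-β libraries held 1, 1, 0 and 0 counts at 2 h and 1, 5, 0 and 4 at 14 h. After scaling, the 10 counts at 14 h were 4.38-fold higher than a vehicle group at 3 counts. That ratio makes no allowance for counting error in the 10. Library 3 of IFN-β had none, and the groups overlapped at 0. Without the filter it was called at 14 h (adjusted p = 0.00479), and its fitted fold change rests on vehicle libraries at 0 and is not given.

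C3, the component on which all pathways converge, had few footprints in every group. Its counts at 2 h were 2, 7, 3 and 0 in vehicle and 1, 3, 2 and 1 in IFN-β. At 14 h they were 0, 0, 1 and 2 in vehicle and 0 in all 4 IFN-β libraries, where a count of 0 allows up to 1.01 CPM in the shallowest library. With 4989 coding bases of its own, C3 offers nearly as much sequence to count as C4b, with 5223. Without the filter its change at 14 h had an adjusted p of 0.209, and at this depth no difference was detectable.

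The surface inhibitors were also near the lower limit of these libraries. Cd55, which encodes decay-accelerating factor, had 2, 2, 0 and 1 footprints in vehicle and 1, 5, 1 and 0 in IFN-β at 2 h, and 2, 3, 1 and 3 against 0, 1, 1 and 2 at 14 h. Cd59a, which encodes an inhibitor of the membrane attack complex, had 0, 0, 0 and 1 against 0, 1, 0 and 1 at 2 h, and 2, 2, 1 and 0 against 0, 1, 2 and 2 at 14 h. The groups overlapped in each case. The summed ratios at 14 h were 0.584 for Cd55, with a counting interval of 0.131 to 2.09, and 1.31 for Cd59a, with 0.302 to 5.71, so changes of several fold in either direction lie within counting error. All counting intervals here cover counting error only.

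Per kilobase of the coding bases that belong to 1 gene, the order at 14 h of IFN-β was Serping1 with 31.7 ± 6.46 CPM per kb, C4b with 26.8 ± 2.12, C1ra with 9.14 ± 1.46, C2 with 3.72 ± 0.852, Cfb with 2.74 ± 2.18, C1s1 with 0.525 ± 0.242, Cd59a with 0.443 ± 0.34, Cd55 with 0.0855 ± 0.0611 and C3 at 0 (SD, n = 4). Serping1 and C4b overlapped, as did C2 and Cfb, and C1s1 and Cd59a. Cfb, with 1 library at 0, also overlapped the genes below it. C1ra lay below both of the first 2 and above all those after it. In vehicle at 14 h the 9 genes lay between 0 and 0.462 CPM per kb, with Cd59a, Serping1 and C4b highest and overlapping. At 2 h in IFN-β, Serping1 led with 7.80 ± 1.95 CPM per kb, and C4b followed with 2.69 ± 2.70, its highest library overlapping the Serping1 range. In vehicle at 2 h C4b was highest at 2.39 ± 2.86 CPM per kb, a mean that culture 3 sets.

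The total RNA tables held almost no reads of these genes. The library kit keeps strand, but the strand setting of the counting is not given in the sources used here, and every total RNA and TE value below, called or not, shares this limit. C4b had 0 to 3 counts, Serping1 0 to 2, C1ra 0 to 1 and C1s1 and C3 none in any total RNA library. Counts that low cannot say whether the footprint changes went with changes in RNA. Cd59a had 9 to 23 counts a library at 2 h and 1 to 6 at 14 h. C2 was the exception with 738 to 1227 counts at 2 h, and with 607, 289, 160 and 468 in vehicle and 644, 566, 614 and 429 in IFN-β at 14 h. No member was called in total RNA at either time: of 2 tested at 2 h (C2 and Cd59a) and 1 at 14 h (C2), 0 also had an unadjusted p under 0.05, where 0.79% of 11639 genes and 6.48% of 7520 genes were called. C2 total RNA changed by 0.08 at 14 h (SE 0.20, adjusted p = 0.872), where its footprints were higher in all 4 IFN-β libraries.

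Total RNA of C2 and of the gene opposite it cannot be told apart here. The gene Zbtb12 lies on the other strand within C2, and the antisense gene Gm16567 on the other strand of C1s1. Zbtb12 had 15, 12, 5 and 21 total RNA counts in vehicle and 64, 51, 54 and 37 in IFN-β at 14 h, a log2 fold change of 1.49 (SE 0.26, adjusted p = 0.000547). Its footprints did not pass the test at 14 h (-0.05, SE 0.09, adjusted p = 0.689). Gm16567 had 1, 0, 0 and 2 counts in vehicle and 11, 8, 9 and 7 in IFN-β, a summed ratio of 8.55 with a counting interval of 2.70 to 43.5, while C1s1 had none. At 2 h Zbtb12 total RNA changed by 0.26 (adjusted p = 1.00) and Gm16567 by 0.26 (adjusted p = 1.00). Over the 14 h libraries, genes with a mean of at least 50 footprints had a median of 12.6 mean total RNA counts when another gene lay on the other strand and 3.88 when none did, with a median of 324 and 332.5 footprints. The plot of total RNA sets the 2 pairs side by side.

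**Figure D5:**
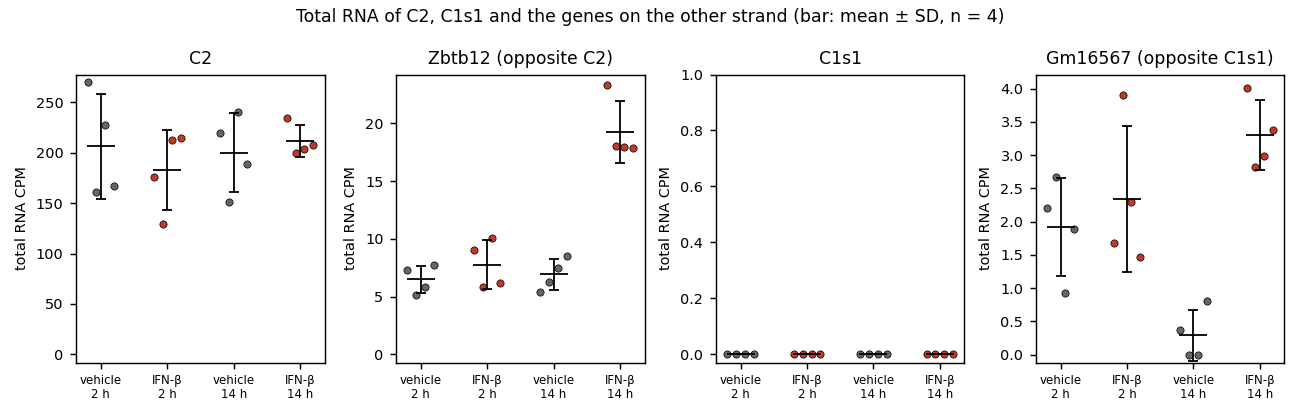
Total RNA CPM of C2, Zbtb12, C1s1 and Gm16567 by treatment and time; points are libraries and bars the mean with its SD (n = 4). C2 is level across the 4 groups and C1s1 is at 0, while the genes on the opposite strand, Zbtb12 and Gm16567, are higher in IFN-β than in vehicle at 14 h.

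Translation efficiency (TE), the footprint change beyond the total RNA change, was tested as an interaction with a threshold of 0.1 on the adjusted p. At 2 h 4 members were tested and 0 called, also at an unadjusted p under 0.05, where 0.808% of 14115 genes were called. At 14 h 4 were tested and 2 called higher, C2 and Serping1, where 8.71% of 13447 genes were called. Of the 4, C2 passed the filter through its total RNA libraries. Serping1, C4b and C1ra passed it only through the IFN-β footprint libraries, where they are high, so this count is given as a description. The C2 value was 4.60 (SE 0.50, adjusted p = 1.11e-07) and rests on the total RNA row described above. The Serping1 value was 7.57 (SE 2.18, adjusted p = 0.0314) and rests on 2 total RNA counts in vehicle and 1 in IFN-β. Without vehicle library 1 it was 3.45 (adjusted p = 1.00). TE of C4b and C1ra has no usable estimate, since 1 or both total RNA groups were at 0.

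Of 49 other complement genes, 48 had a row in the footprint tables and 37 had at least 1 count. At 2 h 9 were tested and none was called in either direction, also at an unadjusted p under 0.05. With the culture number as a block 1 of them, Clu, was called higher at 2 h (0.76, SE 0.09, adjusted p = 8.53e-06). At 14 h 11 were tested, with 4 higher, 4 lower and 3 not past the test, where 25.9% of all 12113 genes were called higher and 26.2% lower. The median log2 fold change of those 11 was 0.06 and that of all genes tested was 0.00.

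The 4 that rose at 14 h were C1rb, already described at 6.88 (SE 0.39, adjusted p = 1.35e-09), Clu at 0.92 (SE 0.16, adjusted p = 0.000211), Masp1 at 0.72 (SE 0.13, adjusted p = 0.000479) and Calr at 0.65 (SE 0.07, adjusted p = 2.21e-06). Clu encodes clusterin, a fluid-phase inhibitor of the membrane attack complex, Masp1 a protease of the lectin pathway, and Calr calreticulin, an endoplasmic reticulum chaperone that can bind C1q. The gene Rtp4 is annotated on the other strand within Masp1. The 4 that fell were C1qbp, a mitochondrial protein that binds C1q, by 0.54 (SE 0.05, adjusted p = 1.17e-06), Itgam, a subunit of complement receptor 3, by 0.75 (SE 0.09, adjusted p = 5.71e-06), Susd4, a membrane complement regulator, by 0.86 (SE 0.30, adjusted p = 0.0268), and Csmd1, another membrane regulator, by 1.07 (SE 0.25, adjusted p = 0.00243). Itgam keeps 209 of its 3599 coding bases apart from another annotated gene. The Susd4 call was lost without vehicle library 1 or 2 or IFN-β library 2 or 3, with adjusted p up to 0.0923. The C1q chains themselves, C1qa, C1qb and C1qc, had 1 footprint in all 16 libraries together.

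C4b and Serping1, the members with a mean of at least 50 counts over the 16 footprint libraries, were compared with 10314 such genes by the root mean square (RMS) difference of log2(CPM + 0.5) from the mean of the 8 vehicle libraries. The genes most like Serping1 were Trim34b, Slfn8 and Tap1, with an RMS difference of 0.41, 0.52 and 0.53. Serping1 stood at 3.34 on this scale in IFN-β at 2 h and at 5.33 at 14 h, and Trim34b at 2.94 and 5.17. The genes most like C4b were Islr, H2-D1 and Tspo, at 0.87, 0.88 and 0.98, a poorer match. C4b stood at 1.25 in vehicle and 1.64 in IFN-β at 2 h, at -1.25 in vehicle and 5.33 in IFN-β at 14 h, and Islr at 1.35, 1.26, -1.35 and 3.80. With 2 in place of 0.5 added to the CPM, 1 of the 3 genes stayed for C4b (H2-D1) and 0 of 3 for Serping1, so these names depend on the setting.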

How the data were processed

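Neural stem cells from the vSVZ of C57BL/6 mice received IFN-β or vehicle, each for 2 h or 14 h, and footprint and total RNA libraries were sequenced (4 per group). Per the methods and the submitters' processing notes, the authors trimmed reads with Trim Galore 0.4.4, aligned them with Bowtie 0.12.7 to the mouse transcriptome (mm10, GRCm38), removed duplicates and deposited raw counts per gene from SummarizeOverlaps in Union mode, over coding sequence for footprints. All per-sample columns were used. Bowtie by default reports 1 alignment per read, so a read that matches a pair of copies can be placed on either.

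Here edgeR 4.0.16 (R 4.3.3) quasi-likelihood tests with TMM scaling and robust dispersion were fitted on all genes that held 10 or more counts in 4 or more libraries, with Benjamini-Hochberg adjustment over all genes tested. Alternatives were DESeq2 1.42.0, limma-voom 3.58.1, total counts as scaling, no filter on low counts, a mean of at least 50 counts, copies summed, the replicate number as a block, and single libraries left out with the genes tested held fixed. The code was tested on simulated data. Same-numbered footprint libraries deviated together from their group means (r 0.47 to 0.863 at 2 h and 0.259 to 0.524 at 14 h). The numbers were therefore taken to pair the footprint libraries by culture. Total RNA libraries did not show this for every number, with r from -0.658 to 0.395 at 2 h and from -0.087 to 0.53 at 14 h. The pairing comes from the footprint data and the shared numbers in the labels. Positions and coding bases are from GENCODE M21 (GRCm38), a close but not the same annotation as that of the authors. Footprint CPM uses 1 TMM scaling over the 16 libraries. The text names all 9 members, their copies, the other complement genes called in footprints at either time and the 3 genes most like each member with a mean of at least 50 counts. Markers of cell types, Zbtb12, Gm16567, Gm20547 and Rtp4 are named outside this rule, after their values were seen. The members and lists were chosen with earlier results of these data known.

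Biological replicates are defined in the methods as different mice or cultures from different mice. At the lowest footprint depth 1 count is 0.338 CPM. Counting intervals are exact (Clopper-Pearson) at 95% and cover counting error only, and a count of 0 was taken to allow 3 counts.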

Additional observations from a re-analysis of the deposited data

Results flagged for a closer look

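The responses of C4b, C1ra and Serping1 in footprints differed between the times by 6.90, 4.08 and 2.80 on the log2 scale (adjusted p = 0.000253, 0.000535 and 0.00307, edgeR interaction), each larger at 14 h. The C4b vehicle means were 12.5 CPM at 2 h and 1.08 CPM at 14 h. C1ra in IFN-β library 1 at 14 h was at 14.8 CPM, apart from the other libraries of its group at 20.4 to 21.5 CPM. This library had the fewest counts of the 16 footprint libraries, 2956297, and held 44 of the 525 C1ra counts of its group. Leaving it out gave no change in the call. Chance marks about 1 group in 20 in this way.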

How the results depend on the processing

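The number of members called higher at 2 h was 2 without the filter on low counts (Serping1 and C1ra) and 0 when the mean had to be 50 counts or more, which Serping1 does not reach at 2 h. At 14 h it was 6 without the filter, which adds C1s1, C2 and Cfb. Other complement genes called higher at 2 h rose from 0 to 1 with the replicate block, and those called lower at 14 h fell from 4 to 2 with a mean of at least 50 counts. Members called in TE went from 0 to 1 at 2 h with limma-voom, and from 2 to 4 at 14 h with both DESeq2 and limma-voom, and were 1 to 2 with single libraries left out. The C4b change at 2 h, not called under any setting, ran from -0.79 to 1.42 with libraries left out. The replicate block changed no other call of a member in footprints. Over all genes it raised the calls at 2 h from 634 higher and 240 lower to 1936 and 1650, and leaving out culture 3 in both groups gave 1172 and 686. The calls of the difference between times rose with the block from 1920 higher and 1936 lower to 3490 and 3441.

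The changes of C4b, C1ra and Serping1 at 14 h kept their direction and call in every alternative in which they were tested, within 6.67 to 7.49, 6.22 to 6.73 and 6.18 to 6.69, and Serping1 at 2 h within 3.22 to 4.02. Of the results on other complement genes, Masp1 and Itgam lost the call of the difference between times under several alternatives, with adjusted p up to 0.0824 and 0.104. Total RNA calls over all genes at 2 h, 83 higher and 9 lower, were fewest with a mean of at least 50 counts (40 and 4) and most with DESeq2 (134 and 35). At 14 h, 284 and 203, they were fewest with total counts alone (178 and 65) and most without the filter (403 and 250). TE calls at 2 h, 82 and 32, were fewest with a mean of at least 50 counts (18 and 6) and most with DESeq2 (176 and 74). At 14 h, 615 and 556, they were fewest with a mean of at least 50 counts (221 and 125) and most with limma-voom (909 and 589). Depth limits C3, Cd55, Cd59a, Cfb and C1s1 in footprints and nearly all members in total RNA.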
